A study of Mus musculus with 5 samples.

Results

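The cells described here are fibroblast-rich cells found among CD45-sorted cells of the mouse aortic arch. They were chosen by their own transcripts: of each cell's molecules, at most 25% came from mitochondrial genes; Col1a1, Col1a2, Col3a1 and Dcn together reached at least 40 per 10000 molecules and exceeded the sum of the smooth muscle genes Myh11, Acta2, Tagln and Cnn1; and C1qa, C1qb and C1qc together stayed under 30 per 10000. This choice took 156 of 1656 cells that passed the mitochondrial limit, from 1743 deposited cells. The pool labelled wild-type gave 86 of 833 kept cells, a share of 10.3% (exact 95% binomial interval 8.34 to 12.6), and the pool labelled Saa3-/- gave 70 of 823, a share of 8.51% (6.69 to 10.6). The intervals overlap, and they cover counting error only. Because the sort kept CD45-positive cells, these cells are carried over from outside the sorted population, and their number says nothing of how many fibroblasts the arch held.

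The tissue came from female C57BL/6J wild-type mice and from littermates with the Saa3 allele C57BL/6N-Saa3tm1.1(KOMP)Vlcg/MbpMmucd. The labels give an age of 12 weeks. Both groups received 1 injection of the same AAV, given to induce atherosclerosis, and ate a Western diet for 18 weeks. The stated age is less than the time on the diet, so it cannot be the age when the arches were taken. Live CD45-positive cells of the digested arches were marked with sample tags and captured together on a BD Rhapsody cartridge, which tells apart the molecules of each gene by unique molecular identifiers. Each genotype is 1 tagged pool, the number of mice behind a pool is not given in the labels, and the 4 samples of bone-marrow-derived macrophages in the series were not analysed here. With 1 pool per genotype there is no replicate, so no difference between pools carries a test, and all intervals given are of counting error.

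Fibroblasts of the vessel wall lie mainly in the adventitia, the outer coat, where they build and cross-link the collagen and proteoglycan matrix, make complement proteins and chemokines, and anchor vessel-wall immune cells. In atherosclerosis, mesenchymal cells of the wall can take up programmes of contractile, inflammatory or cartilage-like matrix genes. SAA3 is an acute-phase serum amyloid A protein made in mice mostly outside the liver, by macrophages, adipocytes and stromal cells in inflammation.

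The fibroblasts held 944576 molecules in the pool labelled wild-type and 781543 in the pool labelled Saa3-/-. Levels are given as CPM, the molecules of a gene per 1000000 molecules summed over the cells of a class and pool. A cell had 1636 to 32198 molecules (median 9740) in the first and 1740 to 40833 (median 7570) in the second, and the median mitochondrial share was 5.70% and 5.67%. No cell index was shared between the pools. Saa3 itself, the targeted gene, checks the labels only in part: in macrophages, the cells with C1q genes at or above 30 per 10000 and neither fibroblast nor smooth muscle genes, the pools labelled wild-type and Saa3-/- had 913 and 38 molecules of it. In fibroblasts the order was the opposite, with 26 molecules against 1147, so the pools are named by their labels throughout. Which bases of Saa3 the allele removes is not given in the labels.

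Fibroblast markers that the selection did not use followed the name. All 12 of them, among them Lum, Pdgfra, Gsn, Dpt, Col6a1 and Serpinf1, stood above the level of the other kept cells in both pools. Their summed level per cell had a median of 177 per 10000 molecules (highest cell 397) in the pool labelled wild-type and 190 (highest 504) in the pool labelled Saa3-/-. Pdgfra, the platelet-derived growth factor receptor that marks many fibroblasts, had 558 CPM (511 to 608) and 569 (518 to 625), against 14.9 and 11.0 in macrophages of the same pools. Lum, the collagen-binding proteoglycan lumican, had 2152 and 2820 CPM, against 95.5 and 202 in smooth muscle cells. Pdgfrb, which mural cells share, separated the classes least, at 76.2 and 106 CPM in fibroblasts and 73.5 and 85.9 in smooth muscle cells. Since the cells were chosen by their transcripts, these levels describe them and test nothing.

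**Figure D1:**
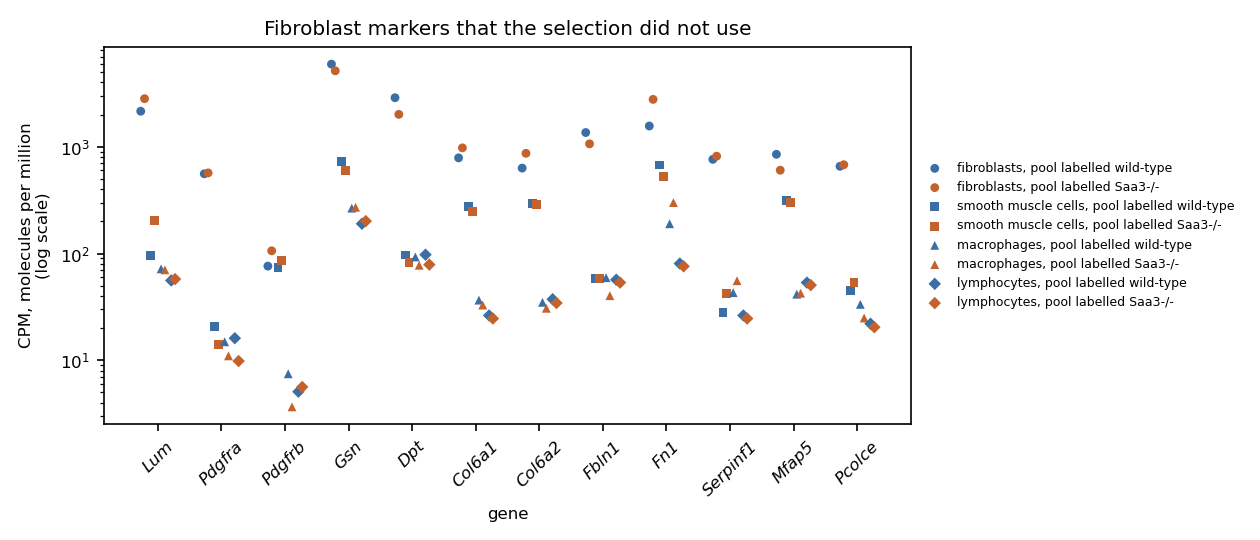
CPM (log scale) of 12 fibroblast markers that the selection did not use, 1 point per cell class and pool (blue, pool labelled wild-type; orange, pool labelled Saa3-/-). The circles of fibroblasts lie above the other classes, though for Pdgfrb in the pool labelled wild-type fibroblasts at 76.2 and smooth muscle cells at 73.5 nearly coincide.

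Few cells lay close to the lower limit. The summed rule genes ran from 44.4 per 10000 (median 227, highest 573) in the pool labelled wild-type and from 43.3 (median 276, highest 836) in the pool labelled Saa3-/-. Just inside the lower limit, between 40 and 50 per 10000, were 3 cells and 1 cell, and just outside it, between 30 and 40, were 2 cells and 0 cells, the higher at 36.7. A further 35 and 29 cells passed the lower limit but had at least as much of the smooth muscle genes, and 5 cells and 1 cell failed only on C1q. Within the fibroblasts, 9 and 3 cells carried 40 or more per 10000 of the smooth muscle genes, up to 184 and 136. Some of these lay near the smooth muscle limit. In the pool labelled wild-type a cell had 58.4 per 10000 of the rule's fibroblast genes and 52.2 of the smooth muscle genes, and the cell at 184 had 221.

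Markers of other cell types were low but not absent. Ptprc, the gene of CD45 on which the sort rests, had 128 molecules in fibroblasts of the pool labelled wild-type and 67 in the other, or 136 and 85.7 CPM. Macrophages had 807 and 749 CPM and smooth muscle cells, also carried over, 87.0 and 164. No Ptprc molecule was counted in 37 of 86 and 39 of 70 fibroblasts. The same held for 8 of 226 and 13 of 158 macrophages and for 67 of 102 and 41 of 68 smooth muscle cells. Median depth was 9740 and 7570 molecules in fibroblasts, 9924 and 6888 in macrophages and 8124 and 6661 in smooth muscle cells. The 8 genes of CD45-positive cells summed to 1134 and 706 CPM in fibroblasts, 758 and 827 in smooth muscle cells, and 9832 and 9898 in macrophages, with none at 0. Macrophage markers summed to 1542 and 1150 CPM (25800 and 22168 in macrophages), T cell markers to 185 and 326 and B cell markers to 958 and 827. Smooth muscle markers summed to 2389 and 1354 CPM against 33344 and 28830 in smooth muscle cells. That gap, and the one to macrophages, was set at least in part by the selection, which limits smooth muscle genes and C1q in fibroblasts and requires them in the other classes. Endothelial markers stood at 130 and 205 and Schwann cell markers at 55.1 and 72.9. Mesothelial markers stood at 6.35 CPM with 5 of 6 genes at 0 in the pool labelled wild-type and at 40.9 with 1 of 6 at 0 in the other. Their highest cells stood at 6.25 and 41.8 per 10000, and the upper quartile was 0 in both pools, so few cells set these levels. Adipocyte markers stood at 1.06 and 2.56 with 4 and 3 of 5 genes at 0. A single cell of the pool labelled wild-type stood apart, with 84.6 per 10000 of 6 immune markers (Tyrobp, Fcer1g, Laptm5, Cd52, Coro1a and Cd53) beside 83.9 of the rule's fibroblast genes, 25 molecules of Ptprc and 258 of Lyz2. It was not the only cell with immune transcripts: 10 and 5 fibroblasts had over 10 per 10000 of the 6 markers. T cell markers reached 17.7 and 42.9 per 10000 in the highest cells, and B cell markers 78.3 and 46.7. No doublet caller was run; the authors' tag calls had set 11 putative cells aside as carrying both tags.

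Matrix genes led the transcriptome. Ranked by molecules, with no scaling to transcript length, the highest nuclear genes outside the ribosomal proteins were Dcn (decorin, the proteoglycan that binds collagen fibrils), Mgp (matrix Gla protein, an inhibitor of calcification) and Sparc (a collagen-binding matricellular protein). Dcn, a rule gene, had 11862 CPM in the pool labelled wild-type and 12356 in the other, and Mgp 11884 and 11133. The 20 highest genes together held 10.4% and 11.0% of all molecules. Besides collagens Col1a1, Col1a2 and Col3a1, they held Bgn and Gsn, the complement genes C3 and Serping1, the metallothioneins Mt1 and Mt2, and Cst3, Igfbp7 and Vim. C3, the central complement component, reached 5489 and 3621 CPM, and Gsn, the actin-severing protein gelsolin, 5939 and 5145. Ribosomal protein genes held 8.23% and 7.57% of molecules.

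The genes with the largest excess over all other kept cells were mostly adventitial and matrix genes of lower level. Dio2, which activates thyroid hormone, stood 57.5-fold and 55.1-fold above the other kept cells, and Prg4, the lubricant proteoglycan 4 of joint and serosal surfaces, 51.1-fold and 47.6-fold. Scn7a, a sodium channel gene, stood 46.5-fold and 50.7-fold above them, Srpx 41.9-fold and 74.7-fold, and Lgi2 60.0-fold and 41.4-fold. Cilp, Ccl11 (the eosinophil chemokine eotaxin), Scara5 (a ferritin receptor), Podn, Angptl7, C7, Bicc1, Tmem100, Cpxm1, Col8a1, Igsf10, Ssc5d, Nid1, Dcn and Abca8b completed the 20, ordered by the lower of both pools' ratios among genes with at least 50 molecules in each pool. Not every such gene was spread over the cells: Cilp was counted in 14 of 86 and 11 of 70 cells, while Nid1, a basement membrane linker, was counted in 61 and 45.

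The cells were not alike. Adventitial genes, a list of 15 that includes Pi16, Cd34, Dpt, Clec3b and Ly6a, had a summed level per cell from 1.04 to 361 per 10000 (quartiles 37.0, 105 and 158) in the pool labelled wild-type and from 0 to 425 (33.2, 92.7 and 146) in the other. Pi16 (chr17:29317680-29330593 on GRCm38, plus strand), a peptidase inhibitor that marks adventitial reservoir fibroblasts across tissues, had per-cell medians of 3.83 and 2.43 per 10000 and highest cells at 77.4 and 96.7. The 5 highest cells held 38.6% and 58.0% of its molecules. Over the 156 cells, taking the per-cell levels of 1136 genes, Pi16 ranked closest to Clec3b (Spearman rho 0.65), Cd34 (0.63), Akap12, Mfap5 and Scara5 (0.57 each) and Dpt (0.56), and farthest from Cpe (-0.49), Clu (-0.44) and Acta2 (-0.43). The points share 1 capture and differ in depth, and the values are descriptions.

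Elastin was counted in more cells than Pi16 (73 of 86 and 61 of 70, against 63 and 45), but a few cells held most of it. Eln (chr5:134702593-134747323, minus strand), the core of elastic fibres, had medians of 4.02 and 4.14 per 10000, highest cells at 247 and 81.6, and 67.0% and 53.9% of its molecules in the 5 highest cells. Its nearest genes over the 156 cells were Gxylt2 (rho 0.51), the elastic fibre assembly gene Fbln5 (0.46), Bgn (0.40) and the cross-linking enzyme Lox (0.39). Il6 (chr5:30013114-30019981, plus strand), the inflammatory cytokine, was counted in 28 of 86 and 15 of 70 cells and ranked nearest to Tnfaip6 (0.40), Cpxm1 (0.38) and the early-response genes Ier3 (0.37) and Egr1 (0.35).

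**Figure D2:**
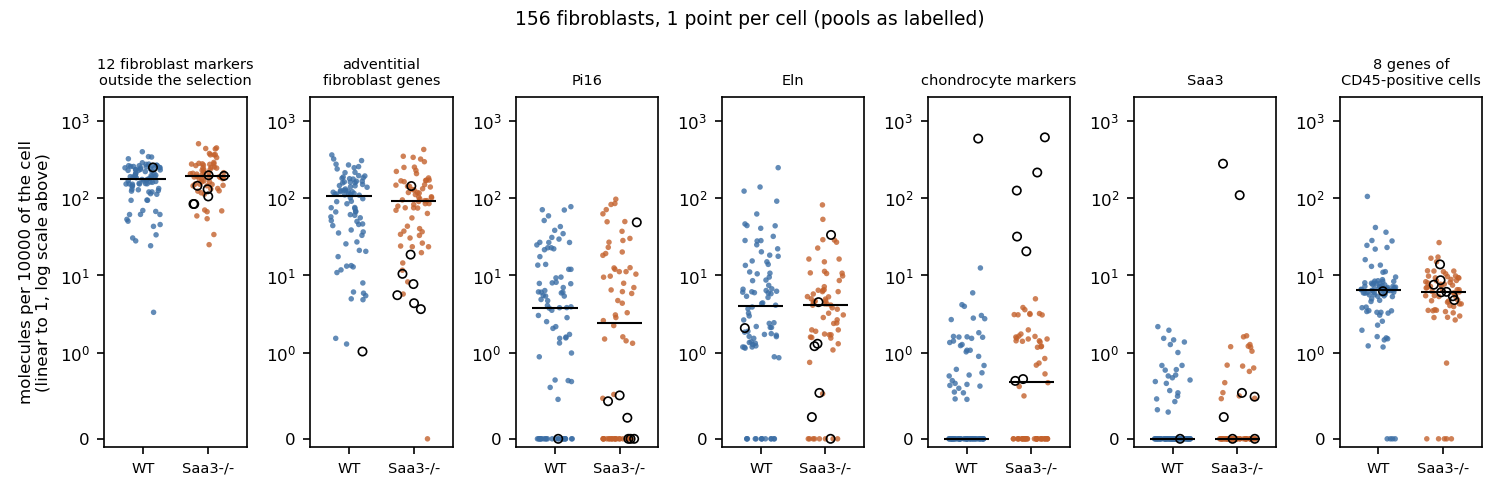
Per-cell levels in 156 fibroblasts, in molecules per 10000 of the cell (linear to 1, log scale above), 1 point per cell by labelled pool; lines mark medians and open circles the 8 cells rich in cartilage genes or Saa3. The medians of the 12 markers outside the selection (177 and 190) and of the adventitial genes (105 and 92.7) lie close together, while single cells set the tops of the chondrocyte marker and Saa3 panels at 609 and 278.

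Between pools, CPM of the summed fibroblasts were compared for the 5598 genes with at least 50 molecules in all. The log2 ratio sets the level labelled Saa3-/- over the level labelled wild-type, with 0.5 molecule added to each sum. The median gene stood at -0.025. A log2 ratio of at least 1, a 2-fold difference, was reached by 146 genes (2.61%), and a ratio of at most -1 by 80 genes (1.43%). Few cells carried many of these: in 50 of the 146 and 9 of the 80, a single cell held over 50% of the molecules of the higher pool. Without 8 cells that stood apart, described next, 5135 genes were compared, of which 87 (1.69%) were higher and 89 (1.73%) lower by 2-fold. Of the first count 36 genes, and of the second 50, were past 2-fold the same way with those cells in. When each cell weighed the same, 147 genes were higher and 128 lower, and the share of higher among them was 53.5% in place of 64.6%. Counts within gene lists, given below, stand beside the shares of 2.61% higher and 1.43% lower over all genes compared. Without the 8 cells those shares are 1.69% and 1.73%.

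**Figure D3:**
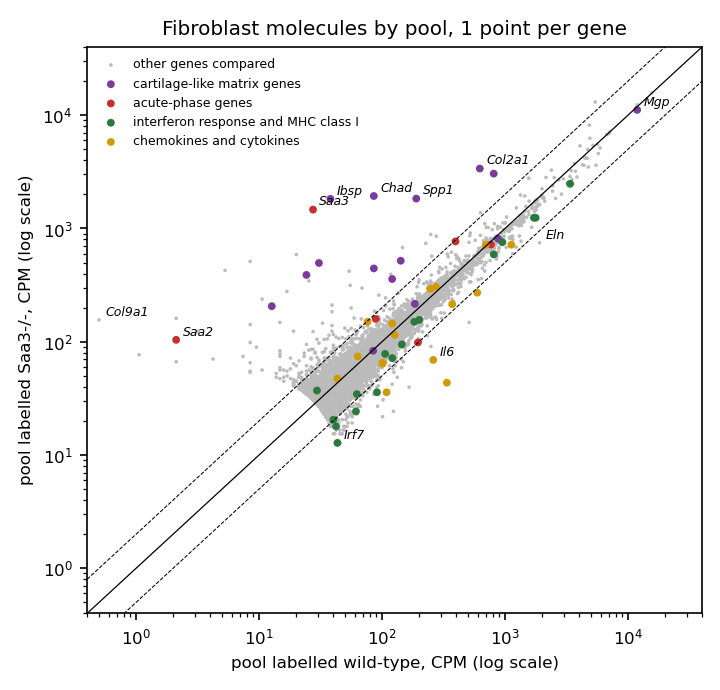
Fibroblast CPM in the pool labelled wild-type (x) and the pool labelled Saa3-/- (y), both on log scales, 1 point per gene with at least 50 molecules; the solid line is equality, dashed lines mark 2-fold, and Col9a1, with 0 molecules in the first pool, is drawn at 0.5. Cartilage-like matrix genes and 2 serum amyloid genes lie far above the diagonal, and Il6, Irf7 and Eln below it.

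Cartilage matrix genes were the most uneven group. Of 15 compared, 11 were at least 2-fold higher in the pool labelled Saa3-/- and none 2-fold lower, with a median log2 ratio of 2.37. Over all genes compared, 2.61% were 2-fold higher. Without the 8 cells, 2 of 11 compared were 2-fold higher and the median was 0.39. Col2a1 (chr15:97975602-98004695, minus strand), the collagen of hyaline cartilage, had 589 molecules (624 CPM) against 2641 (3379 CPM), a log2 ratio of 2.44 (counting interval 2.31 to 2.57), and 0.53 without those cells. Of the 589 molecules 542 were in 1 cell, and of the 2641, 1856 and 691 were in 2. Col9a1, a fibril-associated cartilage collagen, had 0 molecules against 122, at least 49.1-fold higher with the first pool set at a floor of 3 molecules. Of the 122, 59, 51 and 11 were in 3 of the cartilage-rich cells, and 1 molecule was left without the 8 cells.

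In all, 6 cells had 20 or more molecules per 10000 from the chondrocyte markers Acan, Col2a1, Col9a1, Matn1 and Hapln1; the limit was set after their values were seen. The pool labelled wild-type had 1 such cell, with 587 per 10000, and the next cell had 12.5. The pool labelled Saa3-/- had 5, with 609, 214, 125, 31.8 and 20.5, and the next cell had 4.99. They were not of 1 kind. The first of the 5 had 1351 molecules of Chad (chondroadherin), 1156 of Ibsp (bone sialoprotein) and 330 of Col10a1, the collagen of hypertrophic cartilage. The second had 525 molecules of Col1a1, 115 of the cartilage regulator Sox9 and 155 of Ibsp. The third, with only 2153 molecules in all, had 59 of Ibsp, the fourth had 220 of Chil1, and the fifth had no Col2a1, 47 of Acan and 815 of Spp1 (osteopontin).

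Matn1 was at 0 in all 6 cells. Of the 5 cells, the first, the second and the fourth had 37482, 40833 and 39597 molecules, against a median of 7570, so they weigh heavily in the pool's sum. Outside the fibroblast rule, 1 further cell of the pool labelled wild-type carried the same genes: it had 769 molecules of Col2a1, 1091 of Chad and 1240 of Ibsp, and C1q at 42.1 per 10000 kept it out. The tissue these cells come from was not tested.

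Of the genes in this list, Comp (cartilage oligomeric matrix protein, which binds collagens) and Spp1 stayed past 2-fold without those cells. Comp had 81 molecules (85.8 CPM) against 347 (444 CPM), a log2 ratio of 2.37 (2.02 to 2.74), and 1.55 without them. Its 3 highest cells held 115, 85 and 58 molecules in the pool labelled Saa3-/- and 15, 10 and 7 in the other. The cells with 115 and 58 are among the 8, so the value of 1.55 still includes the cell with 85. Spp1 had 179 and 1434 molecules, a log2 ratio of 3.27, and 1.38 without the 8 cells. Of the cells left in the pool labelled Saa3-/-, the highest had 155, 96.1 and 74.9 per 10000 of Spp1. The median cell of that pool had 0, and the highest cell left in the other pool had 39.7. Spp1 stood at 0.96 without cells with immune transcripts, a setting that also drops the 8 cells. Chad and Sox9, at log2 ratios of 4.49 and 1.57, stood at -0.35 and -0.12 without the 8 cells. Ibsp and Col11a1, at 5.56 and 3.97, then fell under 50 molecules in all, too few to compare. Acan, the cartilage proteoglycan aggrecan, had 29 and 388 molecules and a log2 ratio of 3.99, but only 9 and 14 molecules without the 8 cells, too few to compare. Prg4 and Mgp, listed with them, had log2 ratios of -0.11 and -0.09.

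Saa3 was held almost entirely by 2 cells. Saa3 (chr7:46711998-46715700, minus strand) had 26 molecules in fibroblasts of the pool labelled wild-type, 27.5 CPM (18.0 to 40.3), and 1147 in the pool labelled Saa3-/-, 1468 CPM (1384 to 1555). The log2 ratio was 5.71 (5.18 to 6.36). A cell of the pool labelled Saa3-/- held 799 molecules and another 325, which were 278 and 109 per 10000 of those cells. No other fibroblast held more than 3 in the pool labelled wild-type or 2 in the other. Without both cells and the cartilage-rich cells, the pools had 26 and 18 molecules, too few for the limit of 50. Smooth muscle cells had 19 and 20 molecules, or 23.3 and 39.9 CPM, close to the level of the remaining fibroblasts.

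Those 2 cells differed from each other. The cell with 799 molecules had 28788 molecules in all, with Pdgfra at 39, Pi16 at 140, Dpt at 69 and C3 at 341. It also had 233 molecules of Lcn2 (lipocalin 2, which binds bacterial siderophores) and all 81 Saa2 molecules counted in fibroblasts of its pool. The cell with 325 had 29683 molecules, with no Pi16, 99 of Eln, 134 of Cp (ceruloplasmin), 64 of the neutrophil chemokine Cxcl1 and 267 of Spp1. Their sample tags put both in the pool labelled Saa3-/-, against what the genotype label says of Saa3, and the cause was not tested. How the authors' pipeline shares molecules among the similar serum amyloid A genes is not stated in the headers.

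Saa2 (chr7:46751790-46754313, plus strand), the neighbouring serum amyloid gene, had 2 and 81 molecules in fibroblasts. The upstream sequences of Saa3 and Saa2 are shown because these genes were counted together in 1 cell. Each runs from 250 to 51 bases before the start that RefSeq gives the gene on GRCm38.p6, on its own strand; this start differs from the GENCODE start behind the gene positions given above: chr7:46715727-46715926, minus strand, for Saa3 and chr7:46751583-46751782, plus strand, for Saa2. Capitals mark matches to TTNNGNAA, a loose form of the C/EBP motif, searched on both strands.
Saa3: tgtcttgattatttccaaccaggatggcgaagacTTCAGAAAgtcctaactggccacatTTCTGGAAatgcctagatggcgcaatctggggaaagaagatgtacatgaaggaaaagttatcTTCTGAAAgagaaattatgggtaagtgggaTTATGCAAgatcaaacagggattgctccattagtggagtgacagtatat
Saa2: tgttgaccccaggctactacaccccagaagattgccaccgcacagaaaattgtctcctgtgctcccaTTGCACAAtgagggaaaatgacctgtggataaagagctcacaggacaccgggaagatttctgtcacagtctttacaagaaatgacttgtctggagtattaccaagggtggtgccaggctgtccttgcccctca
Saa3 had 4 matches, at 216, 191, 129 and 99 bases before the RefSeq start, and Saa2 had 1, at 183. Windows with at least 1 such match made up 32.3% of 32851 mouse promoters. Neither window held the NF-kB motif, present in 3.1% of windows, or TATAAA, present in 9.1%. The windows end 51 bases before the start, so this says nothing of the bases nearer to it. These matches are letters in a sequence and say nothing of binding. Of the factors that use the C/EBP motif, Cebpb had 301 and 180 CPM in fibroblasts (log2 ratio -0.73) and Cebpd 449 and 377 (-0.25).

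Other acute-phase genes also gave different values with and without the 8 cells. Of 6 compared, Saa2 and Saa3 were past 2-fold higher and none was lower, with a median of 0.89. Without the 8 cells, 3 of 4 compared were past 2-fold lower, with a median of -1.19. Lcn2 had 374 and 601 molecules (log2 ratio 0.96, and -1.36 without those cells), and Hp, the haemoglobin scavenger haptoglobin, 84 and 124 (0.83, and -3.01). Steap4, an iron reductase, had 185 and 77 molecules (-0.99, and -1.03). For Lcn2 and Hp the order of the pools thus depends on 8 of 156 cells, and Steap4 kept its order.

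Collagens and their processing enzymes were close to equal between pools. Of the 8 fibrillar collagens compared, only the cartilage members Col2a1 and Col11a1 passed 2-fold, and the median of the list was 0.37, or 0.27 without the 8 cells. Col1a1 had 3844 and 4189 molecules, 4070 and 5360 CPM, a log2 ratio of 0.40 (0.33 to 0.46). Col3a1 had 3663 and 3744 CPM. These are rule genes, required at a level set alike in both pools. Among the other collagens, Col12a1, which links fibrils to the surrounding matrix, was past 2-fold higher at 20 and 53 molecules (log2 ratio 1.66, and 1.78 without the 8 cells). Col8a1 stood at 0.19 with all cells and at -1.39 without the 8 cells.

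Of 18 compared genes for collagen processing and cross-linking none passed 2-fold, with a median of 0.31. Serpinh1, the collagen chaperone, had 871 and 1043 CPM. Lox, at 362 and 403, had a log2 ratio of 0.15 that turned to -0.99 without the 8 cells. Of 11 small leucine-rich proteoglycans, Fmod, Omd and Chad were past 2-fold higher with all cells and none without the 8; Bgn and Dcn were at a log2 ratio of 0.06 each. Proteases and their inhibitors had no gene past 2-fold among 13, with Mmp2 at 964 and 1120 CPM and Timp3 at 2512 and 2814. Timp1, an inhibitor of matrix metalloproteases, passed 2-fold lower only without the 8 cells (-1.58), and 458 of its 572 molecules in the pool labelled wild-type were in 1 cell.

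Among adhesive glycoproteins, Comp and Sparc of 12 compared were past 2-fold higher. Sparc had 5123 and 10220 molecules, a log2 ratio of 1.27, and stood at 0.23 without the 8 cells. Fn1, fibronectin, had 1564 and 2777 CPM, at 0.83 and 0.74. Postn, periostin, a matrix protein of remodelling tissue, had 302 and 140 molecules, at -0.83 and -1.02.

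Elastin was the only elastic fibre gene of 16 past 2-fold lower. Eln had 1805 molecules (1911 CPM, 1824 to 2001) in the pool labelled wild-type and 584 (747 CPM, 688 to 810) in the other, a log2 ratio of -1.35 (-1.49 to -1.22). A single cell held 795 of the 1805; it also held 363 molecules of Acta2 and 184 per 10000 of the smooth muscle genes. Without the highest cell of each pool the log2 ratio was -0.83. It was -0.07 without cells with any Ptprc molecule or over 10 per 10000 of the 6 immune markers (35 and 36 cells left). Since any Ptprc molecule drops a cell, that setting more often drops cells with many molecules. It also drops the 8 cells and the cell with 795 Eln molecules. Smooth muscle cells of both pools had 1753 and 1833 CPM. Fbln5 had a log2 ratio of -0.42 and Fbn1, the microfibril scaffold fibrillin 1, of 0.08, and Emilin1 was just past 2-fold higher at 1.01 (0.43 without the 8 cells).

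Contractile genes had a median below 0. The list of genes of myofibroblasts, activated contractile fibroblasts, had 1 of 9 compared past 2-fold lower and a median of -0.55, or -0.66 without the 8 cells. That gene was Tagln, an actin-binding protein and a gene of the selection rule, with 483 and 116 molecules, 511 and 148 CPM, and a log2 ratio of -1.78 (-2.09 to -1.49). The 5 highest cells held 66.3% and 51.7% of its molecules. The cell highest in Tagln, at 51.6 per 10000, was the cell with 795 Eln molecules and 184 per 10000 of the smooth muscle genes. Without the highest cell of each pool Tagln stood at -1.53. Acta2, smooth muscle actin, had 1159 and 798 CPM (-0.54). Of 7 compared smooth muscle markers, Tagln and Synpo2 were past 2-fold lower, and the 8 markers summed to 2389 and 1354 CPM. The part of carried smooth muscle transcripts in this was not tested. Ctgf, connective tissue growth factor, stood at 0.46 with all cells and at -0.58 without the 8 cells.

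Several cytokines and chemokines had less than 50% of their level in the pool labelled Saa3-/-. Of 16 compared, Il6, Cxcl1, Cxcl14 and Ccl19 were past 2-fold lower and none was 2-fold higher, with a median of -0.38. Over all genes compared, 1.43% were 2-fold lower. Without the 8 cells 4 were past 2-fold lower and 1 higher, and the median was -0.61. Il6 had 247 molecules (261 CPM, 230 to 296) in the pool labelled wild-type and 54 (69.1, 51.9 to 90.2) in the other, a log2 ratio of -1.91 (-2.37 to -1.49). It stood at -1.60 without the 8 cells, -2.56 without the highest cell of each pool and -1.33 without cells with immune transcripts. The highest cell held 28 molecules in the first pool and 24 in the second. Macrophages had 7.11 and 7.32 CPM of Il6, so the fibroblast level stood above theirs in both pools.

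Cxcl1 had 595 and 271 CPM, a log2 ratio of -1.13. It was not past 2-fold when each cell weighed the same (-0.87), without cells with immune transcripts (-0.70) or without the 6 cartilage-rich cells (-0.88), and stood at -1.67 without the 8 cells. Cxcl14 had 318 and 34 molecules (-2.93), but 181 and 133 of the 318 lay in 2 cells. Ccl19, a ligand of the lymphocyte homing receptor CCR7, had 103 and 28 (-1.59). Cxcl12, the ligand of CXCR4 that retains leukocytes, had 1126 and 718 CPM (-0.65), and Il33, the alarmin, 372 and 215 (-0.79). Ccl2, Ccl11, Vcam1 and Icam1 stood between -0.14 and 0.26. Ccl7 had 72 and 117 molecules (0.97), and passed 2-fold higher without the 8 cells (1.12). None of 13 cytokine receptors compared passed 2-fold, with Il1r1, the interleukin 1 receptor, at 234 and 164 CPM and Il6st, the shared receptor chain gp130, at 471 and 458.

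Complement genes were high in both pools. Of 11 compared none passed 2-fold, with a median of -0.37. C3 stood at -0.60 (-0.67 to -0.53) and C4b at 1155 and 600 CPM (-0.94). C4b passed 2-fold lower without the 8 cells (-1.48). Serping1, the C1 inhibitor, was near equal at 3453 and 3230 CPM. Without cells with immune transcripts the median of the list was 0.45, on the other side of 0. That setting left 35 and 36 cells, none of them from the 8, and more often drops cells with many molecules.

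Interferon-response and MHC class I genes had a median below 0. Of 17 compared, Irf7, Isg15, Ifit3 and Ifit2 were past 2-fold lower (1.43% over all genes) and none was higher, with a median of -0.51. None of the 4 was past 2-fold when each cell weighed the same, with Irf7 at -0.98, Isg15 at -0.69, Ifit3 at -0.67 and Ifit2 at -0.45. Without the 8 cells 2 of 16 compared were past 2-fold lower. The median was -0.39 without the 8 cells and -0.32 without cells with immune transcripts. Irf7, a master regulator of type I interferon genes, had 41 and 10 molecules (-1.71), and Isg15, a ubiquitin-like interferon target, 58 and 19 (-1.31). Ifit3 had 86 and 28 molecules, 58.1% of the 86 in 1 cell. B2m, the light chain of MHC class I, had 3384 and 2480 CPM, a log2 ratio of -0.45. Beside this, the 8 genes of CD45-positive cells stood at 1134 and 706 CPM with a median log2 ratio of -0.64; their part in the result was not tested.

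The adventitial list was even between pools. Of 14 compared, 1 was past 2-fold higher and none lower, and the median was -0.07. That gene was Dpp4, a peptidase of the fibroblast surface, with only 15 and 35 molecules (1.47, and 0.84 without the highest cell of each pool). Pi16 had 1030 and 1263 CPM (0.29), Cd34 938 and 910 (-0.04), Ly6a 1351 and 773 (-0.81), Clec3b 1312 and 859 (-0.61) and Dpt 2879 and 2010 (-0.52). Members of the list thus stood on both sides of 0.

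Growth factor genes were mostly even. Of 21 compared, Fgf2 was past 2-fold higher (64 and 124 molecules, 1.22) and Vegfd lower (118 and 42, -1.21), and the median was 0.03. Neither passed 2-fold without the 8 cells, at 0.78 and -0.86. Of 5 insulin-like growth factor binding proteins, Igfbp3 was past 2-fold higher, with 35 and 89 molecules and a log2 ratio of 1.61 (1.04 to 2.23), and 2.02 without the 8 cells. Igfbp5 stood at 0.42 and Igfbp4, at 3216 and 2516 CPM, at -0.35. Of 8 Wnt genes, Sfrp4, Frzb and Wif1, all secreted antagonists, were past 2-fold higher. Sfrp4 had 240 and 446 molecules (1.17), of which 1 cell held 286; without the highest cell of each pool it stood at 0.13. Frzb had 261 and 668 molecules (1.63, and -0.50 without the 8 cells). Wif1 had 12 and 161 (3.96), but under 50 molecules in all without the 8 cells, too few to compare.

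Of 21 mesenchymal transcription factors, Sox9 and Meox1 were past 2-fold higher, and the median was 0.06. Meox1, a homeobox gene of fibroblast activation, had 22 and 58 molecules, a log2 ratio of 1.65 (0.94 to 2.45), and 2.07 without the 8 cells; 21, 13 and 12 of the 58 lay in 3 cells. Tcf21, a regulator of adventitial and epicardial lineages, had 38 and 27 molecules, too few to enter the 20 genes of largest excess, and was 51.1-fold and 51.2-fold above the other kept cells. Immediate early and stress genes, which respond to tissue digestion, had no gene past 2-fold among 21, with Fos at 1237 and 1520 CPM, Egr1 at 2000 and 2239 and Socs3 at 306 and 161. Lipid handling genes had 1 of 15 past 2-fold lower, Cd36, at 38 and 14 molecules (-1.14, and -0.36 with equal weight per cell). Of the receptors proposed for SAA3, only Tlr2, Tlr4 and Cd36 of 8 reached 50 molecules; Tlr4 had 60.3 and 32.0 CPM (-0.90) and Tlr2 29.6 and 55.0 (0.88). Macrophages carried more of the 8 receptors together, at 879 and 858 CPM against 173 and 137 in fibroblasts.

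**Figure D4:**
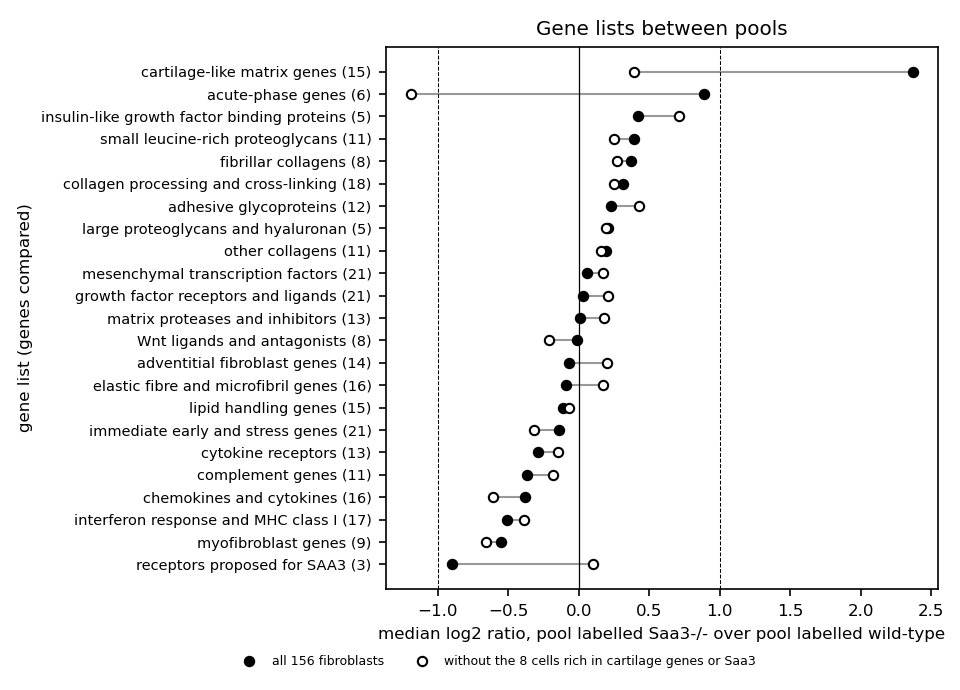
Median log2 ratio of 23 gene lists (genes compared in brackets), Saa3-/- label over wild-type label, with all 156 fibroblasts (filled) and without the 8 cells rich in cartilage genes or Saa3 (open). Cartilage-like genes move from 2.37 to 0.39 and acute-phase genes from 0.89 to -1.19, while the lists of myofibroblast, chemokine and interferon genes stay below 0.

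Beyond the lists, the largest ratios were found by leaving out genes with over 50% of the higher pool's molecules in 1 cell. The 10 genes highest in the pool labelled Saa3-/- included Col9a1, Acan, Mki67, Angptl1, Comp, Itga10, Rarres1, Myo1e and Hbegf. Mki67, which marks dividing cells, had 4 and 55 molecules (3.90), but 24 and 21 of the 55 lay in 2 cells. Those 2 cells had 23 and 18 molecules of the mitotic topoisomerase Top2a, 8 and 4 of Ptprc, 2 and 5 of the T cell gene Cd3e and 110 and 31 of Dcn. Whether they are single cells was not tested. Angptl1, a secreted angiopoietin-like protein, had 8 and 43 molecules (2.63), counted in 8 and 13 cells. Without the cells rich in cartilage genes or Saa3 it had too few molecules to compare.

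Hbegf, a growth factor of the EGF family, had 31 and 114 molecules and a log2 ratio of 2.14. Without the 8 cells it fell under 50 molecules in all, too few to compare. Itga10, a collagen-binding integrin of cartilage, had 14 and 61 molecules (2.36), and it too had too few to compare without those cells.

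Lower in the pool labelled Saa3-/- were Aldh1a2, Ccl6, Il6, Tagln, Hhip, Cntn6, Irf7, Iigp1, Irgm2 and Ccl19. Aldh1a2, which makes retinoic acid, had 95 and 17 molecules (-2.17, -3.05 to -1.45) in 15 and 9 cells; it stood at -0.64 when each cell weighed the same. Hhip, a hedgehog antagonist, had 87 and 21 (-1.75), and the interferon-induced GTPases Iigp1 and Irgm2 had 96 and 24 (-1.70) and 45 and 12 (-1.59). With equal weight per cell Iigp1 stood at -1.25 and Irgm2 at -0.76, no longer past 2-fold. Ccl6 had 157 and 31 molecules, 78 of the 157 in the single cell rich in immune markers; macrophages had 1100 and 924 CPM of it. Cntn6, a neural adhesion gene, had 42 and 10 molecules.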

How the data were processed

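Molecules were counted in cells of the aortic arch of 2 tagged pools. Per the file headers, the authors made the count tables with the BD Rhapsody WTA Analysis Pipeline 1.11.1 on GRCm38 with GENCODE release 19, intronic reads included, with no normalization named; the values are whole counts per gene and cell. The submitters' processing notes also name R 4.3.1, Seurat 4.3.0 and mm10. Only the deposited table names tie a tag to a genotype. Of 2401 putative cells in the tag table, 647 had no tag call.

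Cells over 25% mitochondrial molecules were dropped (56 and 31), leaving 7289593 and 5231922 molecules. Classes were set by thresholds per 10000 molecules: smooth muscle at 40, C1q at 30, lymphocyte genes at 10. Counts were summed per pool (Python 3.11.15, numpy 2.4.6, pandas 2.3.3, scipy 1.17.1, matplotlib 3.10.9). Intervals are exact Poisson, conditional binomial for ratios, or Clopper-Pearson for shares. The ratio code was tested on simulated data. Cells are not replicates, so no test was made.

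Named are members of lists, the 20 highest genes by level and by excess over other kept cells, the 10 highest and 10 lowest ratios with no cell over 50% of the higher pool's molecules, and Saa3; other genes named (nearest genes over cells, and genes of single cells) were chosen after their values were seen. Some items are not reported here. The members and lists were chosen with earlier results of these data known. Positions are from GENCODE release 21 on GRCm38. Alternatives covered cell limits, molecule minimum, pseudocount, scaling, thinning, cell weights and cells left out.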

Additional observations from a re-analysis of the deposited data

Results flagged for a closer look

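Saa3 differed between pools in opposite directions in fibroblasts and in macrophages. Its log2 ratio, pool labelled Saa3-/- over pool labelled wild-type, was 5.71 in fibroblasts (26 and 1147 molecules) and -3.53 in macrophages (913 and 38 molecules). It stood out because both classes share the same contrast and the signs are opposite; the difference itself was not tested, since each pool is 1 sample. The fibroblast value rests on 2 cells with 799 and 325 molecules.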

How the results depend on the processing

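No paired analysis was possible because each genotype is 1 pool with no replicate number. Leaving out cells with any Ptprc molecule or over 10 per 10000 of 6 immune markers gave shares of 4.20% and 4.37%. It gave 51 genes higher by 2-fold (84 lower) of 1823 compared, and Sfrp4 and Sox9 turned to -0.46 and -0.53. That setting also dropped all cells rich in cartilage genes or Saa3, and more often dropped cells with many molecules. Equal weight per cell gave 128 genes lower. Without the highest cell of each pool, Saa2 turned to -1.28, with too few molecules left to compare. A minimum of 20 molecules gave 396 higher and 292 lower of 9075, and a minimum of 100 gave 69 and 29 of 3105; fewer or more genes were compared by construction. The following settings were chosen after seeing the data. Without the 6 cartilage-rich cells, 72 genes were higher, 21 list genes passed 2-fold (36 with all cells), and Chad and Frzb stood at -0.28 and -0.40. Without these and the 2 cells rich in Saa3, 87 genes were higher, 23 list genes passed 2-fold, and Chad, Frzb and Sox9 stood at -0.35, -0.50 and -0.12. The other settings (mitochondrial limit, rule minimum, thinning, pseudocount, centring, scaling) kept both counts within 1.5 times; a minimum of 1000 molecules per cell removed none. Of 49 named genes followed, 27 were past 2-fold the same way under all those settings other than the added ones. Settings that did not keep a gene, for too few molecules, were not counted for it. The 27 include Saa3, Chad, Ibsp, Acan and Col9a1. Leaving out cells with immune transcripts, which also drops all cells rich in cartilage genes or Saa3, did not keep these genes. The count of 27 thus does not show that their ratios hold without those cells, and that of Chad turned to -0.35. At 86 and 70 cells, a gene at 50 molecules can rest on 1 cell, and spread between mice cannot be seen.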
